A study of Mus musculus with 8 samples.

Results

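The genes described here are the inhibitors of cyclin-dependent kinases (CDKs), with the tumor suppressor p53 and its ligase, in cultured brain pericytes treated with TGF-β1. They are 10 genes of the 54532 gene identifiers in the count tables, namely Cdkn1a, Cdkn1b, Cdkn1c, Cdkn2a, Cdkn2b, Cdkn2c, Cdkn2d, Trp53, Mdm2 and Mtap. The genes were chosen by name with earlier results of these data known, and the measured value that entered the choice was the absence of reads from Cdkn2a and Cdkn2b, which is therefore given as a description without a test. The list includes Cdkn2b and Cdkn1a as textbook targets of the growth arrest by TGF-β, and Mtap as the neighbor of the Cdkn2a locus. RNA was sequenced from 8 primary cultures of brain pericytes from wild-type (WT) mice. Of these, 4 cultures (numbered 1 to 4) received vehicle and 4 (numbered 5 to 8) received TGF-β1. The study's methods give the dose as 5 μg/mL, and its results give 48 h for both groups. The labels give neither the age of the mice nor the animals behind each culture. According to the methods the cells were isolated from brain by papain digestion, grown in endothelial growth medium and moved to pericyte medium after the third passage, so the cultures are expanded primary cells and not freshly isolated pericytes.

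CDKs drive cells through the division cycle, and the genes studied here encode their brakes. The Cip/Kip proteins p21 (Cdkn1a), p27 (Cdkn1b) and p57 (Cdkn1c) bind complexes of cyclins with several CDKs, whereas the INK4 proteins p16 (Cdkn2a), p15 (Cdkn2b), p18 (Cdkn2c) and p19 (Cdkn2d) bind Cdk4 and Cdk6 and keep them away from the D-type cyclins. The transcription factor p53 (Trp53) induces p21 and also Mdm2, the ubiquitin ligase that marks p53 for degradation, and the second product of Cdkn2a, Arf, blocks Mdm2. In many epithelial cells TGF-β halts division by inducing p15 and p21 and by repressing Myc and the Id genes. Mtap, an enzyme of methionine salvage, lies beside Cdkn2a and is often lost together with it in tumors.

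Promoter windows of 3 of the genes are shown here, to give the letters near their starts that match the p53 and Smad motifs. For Mdm2 the promoter known to respond to p53 lies in the first intron, outside the window shown. RefSeq promoters on GRCm38.p6, running from 250 bases before to 50 bases after an annotated start, were found for 9 of the 10 genes, and Cdkn1a had 2 starts that lay 2790 bases apart. The upstream Cdkn1a promoter (chr17:29090729-29091028, plus strand), the Cdkn2b promoter (chr4:89310983-89311282, minus strand) and the Mdm2 promoter (chr10:117710709-117711008, minus strand) read as follows, with matches to the p53 site, its half-site and the Smad-binding letters CAGAC, on either strand, in capitals.
Cdkn1a: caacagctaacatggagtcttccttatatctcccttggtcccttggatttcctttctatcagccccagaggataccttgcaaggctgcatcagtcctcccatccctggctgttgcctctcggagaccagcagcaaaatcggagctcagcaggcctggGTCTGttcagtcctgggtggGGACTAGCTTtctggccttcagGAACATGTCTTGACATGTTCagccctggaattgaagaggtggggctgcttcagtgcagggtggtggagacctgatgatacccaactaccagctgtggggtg
Cdkn2b: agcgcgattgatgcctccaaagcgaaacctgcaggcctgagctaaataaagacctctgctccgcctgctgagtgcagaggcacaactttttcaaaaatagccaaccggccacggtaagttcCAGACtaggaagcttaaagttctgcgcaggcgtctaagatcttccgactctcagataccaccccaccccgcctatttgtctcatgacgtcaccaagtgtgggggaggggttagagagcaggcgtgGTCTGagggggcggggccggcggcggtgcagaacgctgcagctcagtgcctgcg
Mdm2: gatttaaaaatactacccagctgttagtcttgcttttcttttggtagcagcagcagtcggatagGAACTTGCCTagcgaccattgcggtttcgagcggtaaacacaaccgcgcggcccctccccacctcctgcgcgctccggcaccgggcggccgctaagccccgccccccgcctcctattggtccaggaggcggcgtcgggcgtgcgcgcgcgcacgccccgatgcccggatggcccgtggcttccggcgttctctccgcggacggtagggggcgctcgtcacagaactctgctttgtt
The upstream Cdkn1a promoter held a full p53 site of 20 bases, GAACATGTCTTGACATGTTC, with 1 mismatch to the textbook consensus, at 51 to 32 bases before the start. Sites with at most 1 mismatch occurred in 29 of the 32851 promoters searched (0.0883%). The p53 half-site of 10 bases was found in the upstream Cdkn1a promoter, in the Cdkn2d, Trp53 and Mdm2 promoters and in 8.36% of all promoters. The other Cdkn1a promoter held neither the full site nor a half-site. CAGAC was matched 2 times each in the Cdkn2b and Cdkn2d promoters and 1 time in each Cdkn1a promoter and in 1 Cdkn2c promoter. At least 1 match occurred in 49.6% of all promoters. All motifs were searched on both strands, and the full site in Cdkn1a overlaps 1 of its half-sites. The Cdkn2b promoter had 18 CpG dinucleotides and the 2 promoters of Cdkn2a had 12 and 45, against a median of 7 over all promoters. Promoters of expressed genes of the list had similar numbers. Mdm2 had 35, Cdkn1b 30, Cdkn2d 22, Mtap 14 and Trp53 10. The 2 promoters of Cdkn1a had 2 and 23, and those of Cdkn2c 8 and 33.

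The libraries were of nearly equal depth, with 45255235 to 47651397 counts per culture, and 3 counts corresponded to 0.0631 to 0.0658 counts per 1000000 library counts (CPM). Of the pericyte markers, Pdgfrb (198 to 210 CPM with vehicle), Cspg4, Acta2, Notch3 and Anpep were expressed, whereas Rgs5 was at 7.98 to 9.09 CPM with vehicle and 1.92 to 2.47 CPM with TGF-β1, Des was at 0.546 to 0.780 CPM over all cultures, and Kcnj8, Abcc9 and Vtn had at most 9 counts in any culture. The endothelial gene Cdh5 was read at 349 to 383 CPM while Pecam1 stayed at or under 1.65 CPM and Cldn5 and Tie1 had at most 10 counts, and the astrocyte gene Gja1 was read at 179 to 199 CPM while Aqp4 had at most 6 counts. Thus only part of the pericyte marker set was expressed, beside single genes of other cell types. The identity of the cells was not tested.

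Cdkn2a and Cdkn2b, whose products p16, Arf and p15 are the locus best known for enforcing senescence, gave 0 counts in each of the 8 cultures. This absence was part of how the genes were chosen. A count of 0 in a culture leaves room for an expected count of up to about 3 in that culture (95% limit). That is 0.0539 to 0.0561 CPM per kb of exon for Cdkn2a and 0.0454 to 0.0473 CPM per kb for Cdkn2b. These limits hold for each culture alone, do not pool the 8 cultures and cover counting error only. Were the mates of each pair counted separately, 3 fragments would amount to 6 counts and the limits would be 0.108 to 0.112 CPM per kb for Cdkn2a and 0.0908 to 0.0947 CPM per kb for Cdkn2b. For comparison, 1407 of the 21918 annotated protein-coding genes (6.42%) had no count in any culture.

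The absence of reads extended beyond both genes on chromosome 4 (positions on GRCm38, GENCODE M21). Cdkn2a (chr4:89274471-89294653, minus strand) and Cdkn2b (chr4:89306299-89311039, minus strand) were the first of 6 consecutive annotated genes with 0 counts in all cultures, the others being the gene models Gm12609, Gm12610, Gm12608 and Gm27580. Gm12609 and Gm12610 are annotated as processed transcripts, Gm12608 as a processed pseudogene and Gm27580 as a miscellaneous RNA, so none is protein-coding. Of all 54532 gene identifiers, 44129 had a count in at least 1 culture. On one side, the long noncoding RNA Gm12606 ended 1.07 kb from Cdkn2a and had 18 to 46 counts per culture. On the other side, Dmrta1, a DM-domain transcription factor, started 406 kb beyond the end of Gm12606 and had 1076 to 1393 counts per culture. The run of genes without counts therefore had counted genes on both sides.

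Mtap, at chr4:89137122-89181081 on the plus strand, was read normally. Its 4 vehicle cultures had 4156, 4001, 4582 and 4240 counts and its 4 TGF-β1 cultures 4109, 4294, 4416 and 4485. The groups overlapped, and the mean was 91.6 ± 3.66 CPM with vehicle and 93.8 ± 2.97 CPM with TGF-β1 (SD, n = 4 each). The difference did not pass the test (edgeR log2 fold change 0.03, 95% interval -0.03 to 0.09, adjusted p = 0.404).

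Within 2.5 Mb of the interval from Mtap to Cdkn2b, 45 protein-coding genes other than Cdkn2a and Cdkn2b were annotated, and 5 of them (11.1%, against the 6.42% of all protein-coding genes) had no count in any culture. These 5, Gm13271, Gm13290, Gm13289, Gm13278 and Gm13279, were gene models among the type I interferon genes. Klhl9, an adaptor of a cullin ubiquitin ligase, had 7916 to 8528 counts, and Mllt3 and Focad were also well counted at 4504 to 4954 and 1992 to 2208 counts. None of these 3 passed the test. Of the other protein-coding genes in this window, Plin2, a lipid droplet protein, and Rps6, a ribosomal protein, were higher with TGF-β1 (log2 fold changes 0.36 and 0.17). Dennd4c (-0.43), Hacd4 (-0.55), Dmrta1 (-0.17) and the interferon genes Ifnb1 (-1.93) and Ifna4 (-2.57) were lower. All of these had edgeR adjusted p under 0.05. Some noncoding genes of the window were called as well, among them Wincr1 (2.10). Ifnb1 had only 7 to 59 counts per culture and Ifna4 0 to 18. The copy number of the locus was not measured, and counts of RNA cannot tell a locus that is absent from one that is present and not transcribed.

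**Figure D1:**
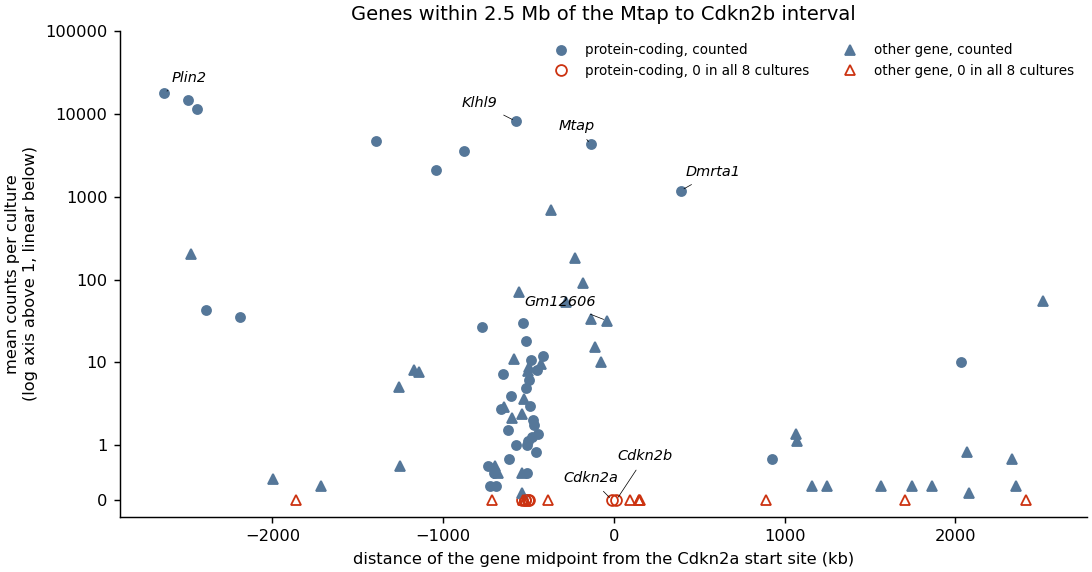
Mean counts per culture (y, logarithmic above 1 and linear below) of each annotated gene within 2.5 Mb of the Mtap to Cdkn2b interval, by the distance of the gene midpoint from the Cdkn2a start site (x, kb). Filled points have counts and open red points have 0 counts in all 8 cultures; Cdkn2a and Cdkn2b sit at 0 between Mtap, at 4001 to 4582 counts, and Dmrta1, at 1076 to 1393 counts.

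For the genes that were expressed, TGF-β1 cultures were compared with vehicle cultures to learn how the cell cycle brakes and p53 respond. Mdm2, Cdkn1a and Trp53 were higher, Cdkn1c, Cdkn1b and Cdkn2c were lower, and Cdkn2d and Mtap did not pass the test. Thus 6 of the 8 tested genes were called, 3 in each direction. Over the 22544 genes tested, 41.3% were called at an edgeR adjusted p under 0.05, with 20.9% higher and 20.3% lower, so a call in a given gene is common here and the direction and size of each difference are the information. The CPM ranges of the groups did not overlap in the same 6 genes, compared with 37.9% of all genes tested. In bulk RNA, fewer cells expressing a gene and less RNA per cell cannot be told apart.

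**Figure D2:**
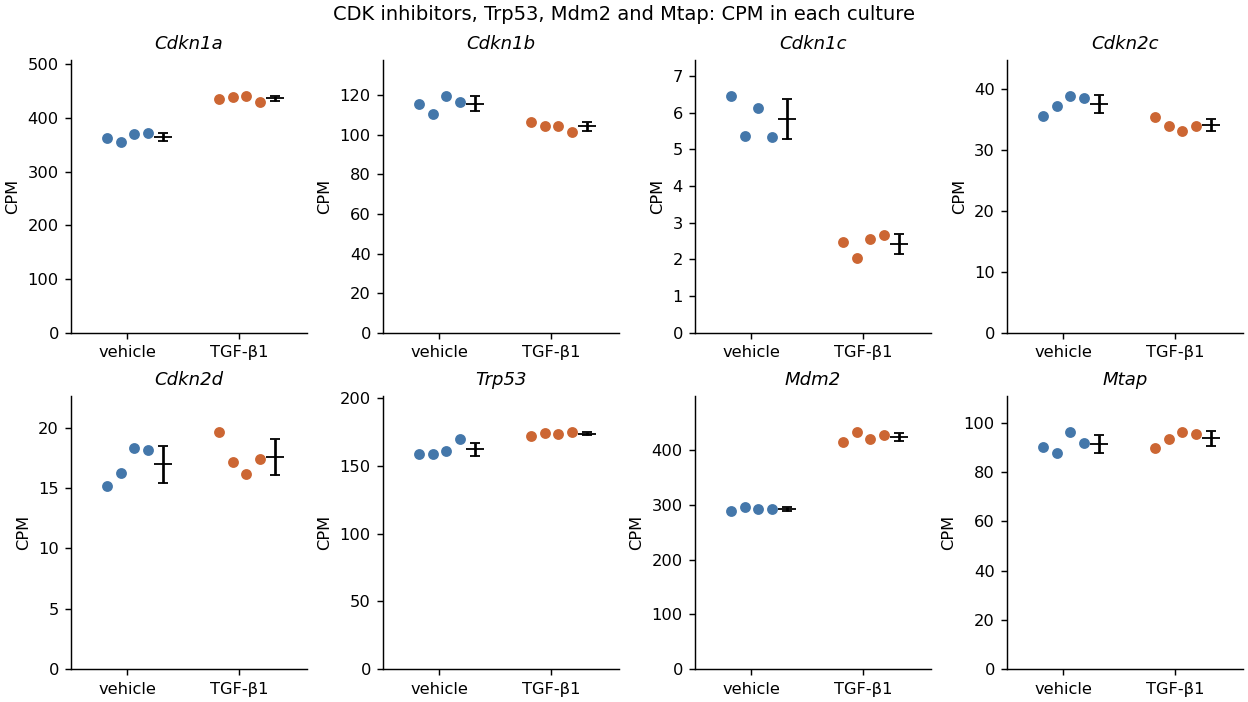
CPM (y, from 0) of the 8 expressed genes in each vehicle (blue) and TGF-β1 (orange) culture, with the mean and SD of the 4 cultures in black. The Mdm2 and Cdkn1a points of all TGF-β1 cultures lie above all vehicle points, those of Cdkn1c lie well below, and Cdkn2d and Mtap overlap.

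Cdkn1a, encoding p21, had 16704, 16167, 17567 and 17140 counts with vehicle and 19929, 20135, 20217 and 20180 counts with TGF-β1. Every treated culture was above every vehicle culture, and the mean went from 364.5 ± 7.65 to 436.0 ± 5.10 CPM (SD, n = 4 each). The log2 fold change was 0.26 (SE 0.02, edgeR adjusted p = 2.91e-13), an increase of 19.6%. Cdkn1a (ENSMUSG00000023067, chr17:29090976-29100727) shares 7.70% of its exon bases with a transcript model on the other strand, AC167363.2, which had 283 to 370 counts per culture.

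The ubiquitin ligase gene Mdm2 (ENSMUSG00000020184, chr10:117688875-117710758) showed the largest rise of the 8 tested genes. It had 13320, 13522, 13905 and 13475 counts with vehicle and 19036, 19917, 19268 and 20066 with TGF-β1. No treated culture fell within the vehicle range, and the mean level went from 292.5 ± 3.12 to 424.2 ± 7.97 CPM. Its log2 fold change was 0.54 (SE 0.02, edgeR adjusted p = 8.78e-24), that is 1.45-fold.

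Trp53, encoding p53 itself, moved less. The vehicle cultures had 7332, 7249, 7663 and 7832 counts and the TGF-β1 cultures 7911, 8028, 7952 and 8244. In CPM all treated cultures were higher, at 174.1 ± 1.26 against 162.3 ± 5.05, although vehicle culture 4 (169.7 CPM) came close to treated culture 5 (172.6 CPM). The difference was 7.30% (log2 fold change 0.10, SE 0.03, edgeR adjusted p = 0.000961). Trp53 lies at chr11:69580359-69591873, and its processed pseudogene Trp53-ps had 8 to 27 counts per culture.

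Since Mdm2 and Cdkn1a are both targets of p53, their counts were set against those of Trp53 in the same library. There were 1.80 ± 0.0606 Mdm2 counts per Trp53 count with vehicle and 2.44 ± 0.0320 with TGF-β1, and 2.247 ± 0.0474 and 2.504 ± 0.0403 for Cdkn1a. Mdm2 also gained on Cdkn1a, from 0.803 ± 0.0228 to 0.973 ± 0.0219 counts per Cdkn1a count. In each of these 3 ratios the groups did not overlap. These ratios are descriptions of RNA counts and say nothing of p53 protein, which Mdm2 controls after translation.

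Cdkn1c, the imprinted gene of p57, had the largest fall. Its vehicle cultures had 298, 245, 291 and 247 counts and its TGF-β1 cultures 113, 94, 117 and 125. The highest treated culture (125 counts) lay below the lowest vehicle culture (245 counts), and the mean went from 5.83 ± 0.556 to 2.43 ± 0.268 CPM. The log2 fold change was -1.26 (SE 0.11, edgeR adjusted p = 6.30e-13), a decrease by 58.2%. Cdkn1c lies at chr7:143458339-143461050 on the minus strand, and 30.7% of its exon bases overlap the antisense model Gm44732, which had 0 counts in all cultures. Kcnq1ot1, the long noncoding RNA of the same imprinted domain, chosen after its values were seen, was also lower (567.6 ± 43.0 against 470.3 ± 9.13 CPM, log2 fold change -0.27, edgeR adjusted p = 0.00299).

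Cdkn1b (chr6:134920401-134925513), encoding p27, had 5328, 5038, 5690 and 5375 counts with vehicle and 4873, 4797, 4788 and 4759 with TGF-β1. All treated cultures were below all vehicle cultures by a small margin, at 104.1 ± 2.11 against 115.6 ± 3.83 CPM. The log2 fold change was -0.15 (SE 0.03, edgeR adjusted p = 1.76e-05). The counts of Cdkn1a per count of Cdkn1b thus went from 3.16 ± 0.0549 to 4.19 ± 0.0675, without overlap between the groups.

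Among the INK4 genes that were expressed, Cdkn2c (p18) had 1639, 1692, 1847 and 1780 counts with vehicle and 1621, 1556, 1514 and 1591 with TGF-β1. After scaling, the lowest vehicle culture (35.6 CPM) and the highest treated culture (35.4 CPM) almost met, and the means were 37.5 ± 1.52 and 34.0 ± 0.972 CPM. The log2 fold change of -0.14 (SE 0.04) passed the test (edgeR adjusted p = 0.00382). Cdkn2d (p19) had 699, 741, 870 and 837 counts with vehicle and 902, 788, 740 and 820 with TGF-β1. Its groups overlapped widely, and the difference did not pass the test (log2 fold change 0.05, 95% interval -0.07 to 0.18, edgeR adjusted p = 0.543). Cdkn2c lies at chr4:109660876-109667189 on the same chromosome as Cdkn2a, and Cdkn2d at chr9:21288410-21291407.

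**Figure D3:**
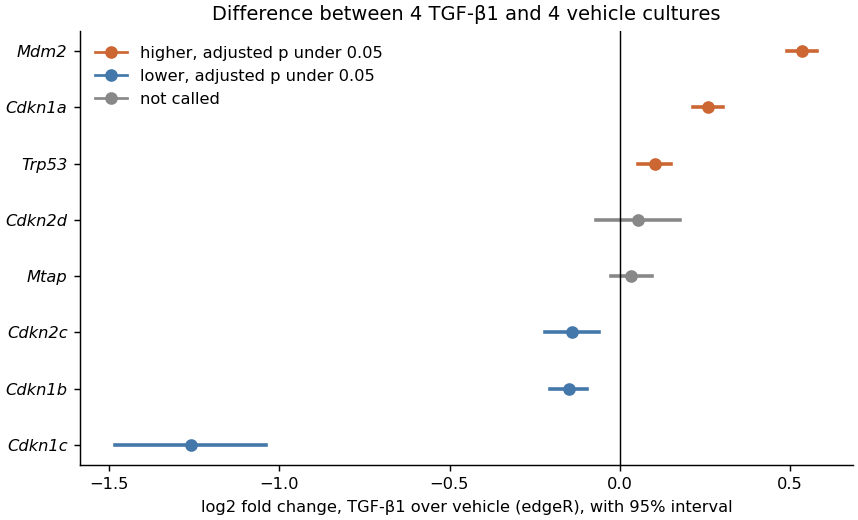
Fitted log2 fold changes of TGF-β1 over vehicle (x) with 95% intervals for the 8 tested genes (y). Mdm2 (0.54), Cdkn1a (0.26) and Trp53 (0.10) lie to the right of 0, Cdkn2c (-0.14), Cdkn1b (-0.15) and Cdkn1c (-1.26) to the left, and the intervals of Cdkn2d and Mtap cross 0.

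Levels of different genes were compared per kb of merged exon. With vehicle the order was Cdkn1a (102.6 ± 2.15 CPM per kb), Mdm2 (57.6 ± 0.614), Trp53 (40.1 ± 1.25), Mtap (28.4 ± 1.13), Cdkn1b (25.4 ± 0.840), Cdkn2c (13.97 ± 0.565), Cdkn2d (10.8 ± 0.964) and Cdkn1c (2.86 ± 0.273), followed by Cdkn2a and Cdkn2b at 0. No neighbors in this order overlapped over the 4 cultures. The order was the same with TGF-β1, where only Cdkn2c (12.7 ± 0.362 CPM per kb) and Cdkn2d (11.2 ± 0.947) overlapped.

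The 7 inhibitor genes together amounted to 155.6 ± 4.12 CPM per kb with vehicle and 170.6 ± 1.88 with TGF-β1. Cdkn1a made up 65.95% ± 0.520 of this sum with vehicle and 71.9% ± 0.743 with TGF-β1. The share of Cdkn1b was 16.3% ± 0.240 and 13.4% ± 0.124, that of Cdkn2c 8.98% ± 0.238 and 7.43% ± 0.183, and that of Cdkn1c 1.84% ± 0.179 and 0.699% ± 0.0806. The share of Cdkn2d, at 6.92% ± 0.474 and 6.56% ± 0.520, overlapped between the groups. Inhibitor RNA was therefore mostly p21 RNA in both groups, and more so with TGF-β1.

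**Figure D4:**
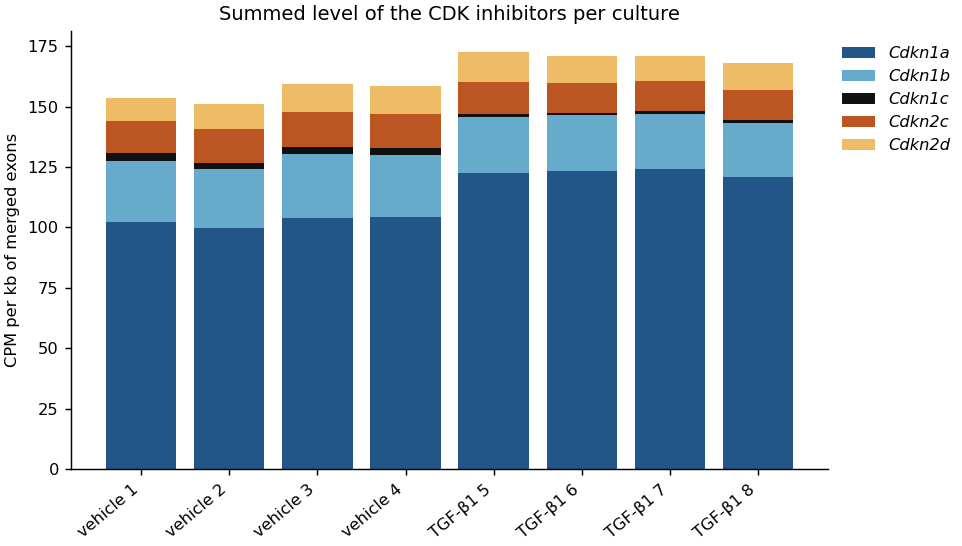
Level of each expressed CDK inhibitor per culture (stacked bars, y in CPM per kb of merged exons, from 0) in the 8 cultures (x). The dark blue Cdkn1a block is the tallest in each bar, and the black Cdkn1c band is thinner in the 4 TGF-β1 cultures.

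To place the members in their pathway, 38 target genes of p53 were examined, none of them a member. Of the 37 tested, 18 were higher (48.6%, against 20.9% of all genes tested), 11 lower (29.7%, against 20.3%) and 8 not called, with a median log2 fold change of 0.06 against -0.01 over all genes tested. The largest rises were those of Gadd45a, a stress sensor that binds Cdk1 and PCNA (9.02 ± 0.252 to 21.6 ± 2.03 CPM, log2 fold change 1.26), of the phosphatase Ptp4a3 (0.83) and of Pmaip1, which encodes the proapoptotic protein Noxa (0.62). The largest falls were those of Sesn1, a sestrin that restrains mTORC1 (57.0 ± 1.09 to 35.3 ± 1.73 CPM, log2 fold change -0.69), of Trp53cor1, the long noncoding RNA lincRNA-p21 next to Cdkn1a (-0.65), and of the mitochondrial reductase Fdxr (-0.49). All 6 had edgeR adjusted p under 0.05 and groups that did not overlap. Accordingly, the increases of Mdm2 and Cdkn1a stood among p53 targets that moved in both directions. Trp53cor1 was lower in all treated cultures (7.05 ± 0.853 to 4.48 ± 0.227 CPM, edgeR adjusted p = 2.26e-07) while its neighbor Cdkn1a was higher.

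Of 24 tested regulators of p53, 6 were higher (25%) and 7 lower (29.2%), shares near the 20.9% and 20.3% of all genes tested, and 11 were not called. Their median log2 fold change was 0.00. Ppp1r13l, the inhibitory family member iASPP, showed the largest rise (21.3 ± 1.54 to 40.1 ± 1.501 CPM, log2 fold change 0.91, edgeR adjusted p = 7.54e-21). The kinase Hipk2 and the ribosomal protein Rpl5, which can bind Mdm2, were higher by 0.18 each. Trp63, a p53 family member (log2 fold change -0.66, at 46 to 95 counts per culture), Daxx (-0.49) and Twist1 (-0.34) were lower, all with edgeR adjusted p under 0.05.

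The kinases and cyclins that the inhibitors bind, with the pocket proteins and E2F factors downstream, were examined next. Of 29 tested, 18 were higher (62.1%, against 20.9% of all genes tested), 3 lower (10.3%, against 20.3%) and 8 not called. Their median log2 fold change was 0.12, against -0.01 over all genes tested. Cdk6, the direct partner of the INK4 proteins, showed the largest rise (70.5 ± 1.32 to 104.9 ± 1.96 CPM, log2 fold change 0.57, edgeR adjusted p = 2.47e-21). It was followed by the E-type cyclins Ccne2 (0.50) and Ccne1 (0.48), partners of Cdk2. The D-type cyclins, which activate Cdk4 and Cdk6, went in both directions. Ccnd1, chosen after its values were seen, was higher (402.9 ± 12.9 to 494.9 ± 4.34 CPM, log2 fold change 0.30), whereas Ccnd3 (261.6 ± 3.58 to 181.9 ± 4.88 CPM, log2 fold change -0.52) and Ccnd2 (-0.28) were lower, as was E2f5 (-0.20), whose groups overlapped. Each of these had an edgeR adjusted p under 0.05.

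Of 13 tested genes that textbooks place in the cytostatic response to TGF-β, 3 were higher (23.1%, against 20.9% of all genes tested), 5 lower (38.5%, against 20.3%) and 5 not called. Myc, which this response represses in epithelial cells, was higher here (57.4 ± 2.46 to 87.5 ± 2.39 CPM, log2 fold change 0.61, edgeR adjusted p = 2.78e-20). Cebpb (0.62) and, with groups that overlapped, Foxo4 (0.12) were also higher. The Id genes encode inhibitors of differentiation factors, and Id2 was lower (57.3 ± 1.403 to 26.3 ± 2.84 CPM, log2 fold change -1.12, edgeR adjusted p = 4.87e-16), together with Id3 (-0.41) and Foxo1 (-0.39), all with edgeR adjusted p under 0.05. Myc and Id2 therefore moved in opposite directions, although both are repressed in the textbook response.

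Proliferation markers were read beside the inhibitors. Of 20 tested, 15 were higher (75%, against 20.9% of all genes tested), 1 lower (5.00%, against 20.3%) and 4 not called. Their median log2 fold change was 0.12, against -0.01 over all genes tested. Among the 20, 3 (Ccna2, Ccnb1 and Cdk1) are also among the CDKs and cyclins above. The differences were small. The largest rises were those of the checkpoint kinase Bub1 (52.8 ± 2.08 to 67.2 ± 0.932 CPM, log2 fold change 0.35), the ribonucleotide reductase subunit Rrm2 (0.25) and the mitotic kinase Aurka (0.21), and the helicase subunit Mcm6 was lower (-0.14), all with edgeR adjusted p under 0.05. Thus the rise of Cdkn1a was measured in cultures in which most of these markers were slightly higher.

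**Figure D5:**
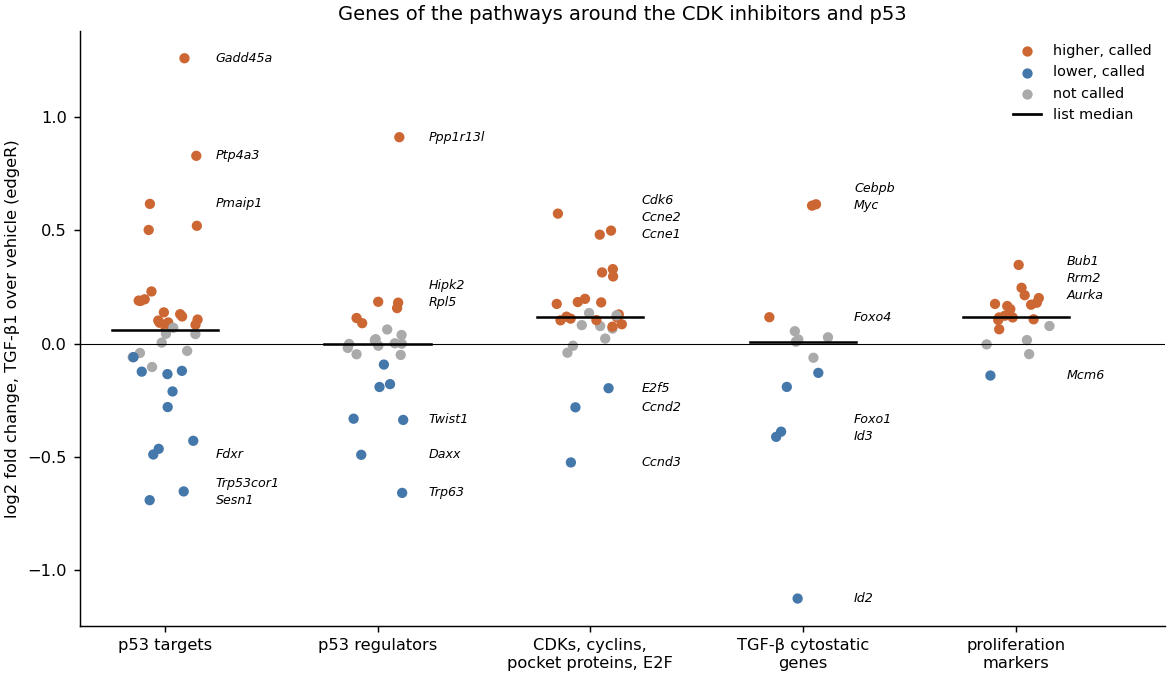
Fitted log2 fold changes of TGF-β1 over vehicle (y) for the tested genes of 5 gene lists (x), with orange for higher, blue for lower and gray for not called, and black bars for list medians. The CDK and cyclin list and the proliferation markers have medians of 0.12, the p53 targets one of 0.06, and p53 targets and TGF-β cytostatic genes spread to both sides of 0.

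Several markers of other cells differed between the groups as well. The summed level of 4 neuron markers was 4.23 to 5.37 CPM with vehicle and 8.82 to 11.7 CPM with TGF-β1, mostly through Tubb3, that of 6 microglia and macrophage markers was 2.65 to 3.69 and 3.98 to 5.03 CPM, and that of 4 oligodendrocyte markers 3.86 to 5.07 and 5.15 to 5.70 CPM. Csf1r of the microglia and macrophage list (log2 fold change 0.73) and Mbp of the oligodendrocyte list (0.49) were higher, with edgeR adjusted p under 0.05. The defining genes Tyrobp and Olig2 had at most 2 counts in any culture. The sum of 4 fibroblast markers was 1652 to 1734 and 2567 to 2694 CPM, carried by Col1a1, with Pdgfra at 61.0 to 65.2 CPM in all cultures and Lum at most 6 counts. Dcn, the remaining fibroblast marker, was lower in all treated cultures (52.1 to 46.7 CPM, log2 fold change -0.16, edgeR adjusted p = 0.000372). The sum of 5 astrocyte markers was 234 to 245 and 206 to 221 CPM, with Slc1a2 lower (38.5 to 16.3 CPM, log2 fold change -1.24) and Aldh1l1 higher (5.16 to 8.79 CPM, 0.77). The sum of 6 endothelial markers was 389 to 404 and 372 to 399 CPM. Of these, Tek was lower, with groups that overlapped (log2 fold change -0.45, edgeR adjusted p = 0.0126). The 10 pericyte markers summed to 1118 to 1179 and 1284 to 1304 CPM, with Cspg4 and Pdgfrb higher (log2 fold changes 1.03 and 0.53) and Rgs5 and Anpep lower (-2.02 and -0.43). The part of these differences in the results on the CDK inhibitors was not tested.

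Finally, the genes whose pattern over the 8 cultures was most like that of Cdkn1a were Myo1c, an unconventional myosin (Pearson r = 0.999 of log2 CPM), Hhip, a binder of hedgehog ligands (0.999), and Kbtbd11 (0.998). The points share libraries and fall into 2 groups, so such values are common, and 2550 of the other 22543 genes tested had r over 0.9. Among the members, Mdm2 (0.98) and Trp53 (0.91) lay closest to Cdkn1a, Mtap (0.44) and Cdkn2d (0.29) in between, and Cdkn2c (-0.81), Cdkn1b (-0.84) and Cdkn1c (-0.97) opposite.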

How the data were processed

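Total RNA of 8 cultures was sequenced from stranded Illumina libraries. According to the methods and the submitters' processing notes, the authors used STAR 2.7.5c with a second mapping pass on mm10, SAMtools 1.15 to drop PCR duplicates, and featureCounts 2.0.3 (Subread) to obtain gene counts. The deposited values are raw counts, with no normalization. The annotation release, the strand setting and the treatment of reads shared between genes are not given in the sources used here. Of low counts, 68.5 to 70.2% were even, so both mates of a pair may have been counted and the number of independent fragments may be lower than the counts.

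Of 54532 gene identifiers, 54409 were paired with a symbol in GENCODE M21 (GRCm38, the assembly of mm10). Groups were compared with edgeR 4.0.16 in R 4.3.3 (filterByExpr, TMM factors, robust quasi-likelihood test), with Benjamini-Hochberg adjustment over 22544 genes, a threshold of 0.05 and SE as the log2 fold change over the square root of F. The 95% intervals use the SE and a normal distribution, without adjustment for the number of genes. An interval and the adjusted p can therefore disagree, as for Bbc3. The code was tested on simulated data. CPM are counts per 1000000 counts of the TMM-scaled library, and CPM per kb divides them by the merged exon length. No low-count filter beyond filterByExpr was used. Vehicle and TGF-β1 cultures carry different numbers, so they were compared unpaired. The methods speak of 4 independent isolates given vehicle and TGF-β1, so each isolate may have supplied a culture to both groups. The labels do not tie isolates to cultures, so the unpaired test may ignore a pairing. Its p-values measure the spread between these cultures. Between pairs of cultures of 1 group, chi-square per degree of freedom on the raw counts was 2.25 to 3.93, and no cultures were merged. Counting both mates of a pair would by itself raise this value, so the lowest values may lie near sampling noise.

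The members and the gene lists were chosen with earlier results of these data known. Named are all 10 members, from each list the 3 largest rises and falls among called genes, protein-coding genes within 2.5 Mb of the Mtap to Cdkn2b interval and the 3 genes most like Cdkn1a. One listed symbol, Trp53rk, had no match, and 1 gene of the cytostatic list is not reported here. Alternatives were DESeq2 1.42.0, 3 other scalings, 2 other filters on low counts, halved counts and leaving out each culture. Promoters were RefSeq's (GRCm38.p6), and Cdkn1c had none.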

Additional observations from a re-analysis of the deposited data

Results flagged for a closer look

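Aurka, a mitotic kinase among the proliferation markers, stood at 39.4 CPM in TGF-β1 culture 8, apart from the other 3 treated cultures, of which the nearest was at 38.3 CPM. Its gap to the nearest was as large a share of the group's range as Dixon's 95% critical value for 4 samples. Over the 72 groups of 4 values examined this way, chance alone gives about 3.6 such values.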

How the results depend on the processing

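The 6 called members kept their direction and an adjusted p under 0.05 under all 15 alternatives. The log2 fold changes ranged from 0.52 to 0.55 for Mdm2, 0.25 to 0.27 for Cdkn1a, 0.09 to 0.12 for Trp53, -0.16 to -0.12 for Cdkn2c, -0.17 to -0.13 for Cdkn1b and -1.30 to -1.19 for Cdkn1c. The largest adjusted p of a called member was 0.0299, for Cdkn2c. The counts of called genes over all genes, the members and the 5 pathway lists moved by no more than 1.5 times, and the marker lists were not refitted. Mtap stayed uncalled, at 0.02 to 0.07. Cdkn2d was uncalled throughout, and its log2 fold change turned to -0.007 (adjusted p = 0.948) without TGF-β1 replicate 5 and was 0.099 without vehicle replicate 3. Other scalings shifted the median of all genes by -0.0111 to 0.0056. Cdkn2a and Cdkn2b have no counts to refit. No paired analysis was possible because the vehicle and TGF-β1 cultures share no replicate numbers in the labels. The depth leaves Cdkn2a and Cdkn2b with an upper limit only.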

Other observations

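The following genes were chosen after their values were seen. Among the p53 targets that repair DNA or supply its building blocks, the damage sensors Ddb2 (6.68 ± 0.356 to 4.84 ± 0.258 CPM, log2 fold change -0.46, edgeR adjusted p = 3.72e-05) and Xpc (21.7 ± 1.41 to 16.1 ± 0.630 CPM, -0.43, adjusted p = 7.88e-09) and the ribonucleotide reductase subunit Rrm2b (-0.28, adjusted p = 2.91e-06) were lower with TGF-β1, whereas the nuclease Ercc5 (0.12, adjusted p = 0.000718) and the polymerase Polk (0.14, adjusted p = 4.54e-05) were higher. Sfn, which encodes 14-3-3 sigma (7.27 ± 0.293 to 10.4 ± 0.735 CPM, log2 fold change 0.52, edgeR adjusted p = 1.28e-07), and the polo-like kinase Plk2 (104.7 ± 4.78 to 148.3 ± 6.18 CPM, 0.50, adjusted p = 1.84e-16) were higher in all 4 treated cultures. Other well-known p53 targets did not pass the test, among them Ccng1 (log2 fold change -0.03, 95% interval -0.08 to 0.01, edgeR adjusted p = 0.312), the proapoptotic Bax (0.04, interval -0.02 to 0.10, adjusted p = 0.305) and Bbc3, which encodes Puma (-0.10, interval -0.19 to -0.01, adjusted p = 0.0646). Mdm4, the partner of Mdm2 in restraining p53, stood at 329.6 ± 6.91 CPM with vehicle and 330.0 ± 12.1 CPM with TGF-β1 (log2 fold change 0.00, interval -0.05 to 0.05, edgeR adjusted p = 0.968).

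Near the Cdkn2a locus, the long noncoding RNA Wincr1 (chr4:89050308-89084614), on the far side of Mtap, had 59, 60, 87 and 71 counts with vehicle and 243, 319, 282 and 339 with TGF-β1. All treated cultures were higher (log2 fold change 2.10, SE 0.13, edgeR adjusted p = 3.18e-18). Gm12606, the last counted gene before Cdkn2a, had 18 to 34 counts with vehicle and 35 to 46 with TGF-β1 (log2 fold change 0.68, SE 0.26, edgeR adjusted p = 0.0328).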
